A study of Drosophila melanogaster with 4 samples.

Results

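The bithorax complex is the cluster of the Hox genes Ubx, abd-A and Abd-B on chromosome arm 3R of Drosophila melanogaster. Its CTCF peaks and H2A.V regions were chosen by position, as all listed peaks whose midpoint lay on 3R between 12480000 and 12815000 (dm3), a window of 335 kb that takes in the genes and their regulatory domains. In this bithorax window lay 19 of the 2459 listed CTCF peaks and 0 of the 3229 listed H2A.V regions. The chromatin came from unstaged wild-type (wt) embryos, fixed with formaldehyde and sonicated. The series holds 4 chromatin immunoprecipitation (ChIP-seq) libraries, a CTCF ChIP, an H2A.V ChIP, an H3 ChIP and an input. The peak lists described here come from the CTCF ChIP and the H2A.V ChIP, 1 library of each and no replicate. The H2A.V library is called so by its antibody label, while its title names H2A.C. The depth was 11657333 tags for CTCF and 12260001 tags for H2A.V, per the file headers.

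The products of these Hox genes are homeodomain transcription factors that set the identity of the body segments. Ubx acts in the posterior thorax and the first abdominal segment, abd-A in the abdominal segments behind it, and Abd-B in the most posterior ones. Each gene is driven by a chain of regulatory domains laid out along the chromosome in the order of the segments they serve, and boundary elements keep neighbouring domains apart. Where a domain is not in use, Polycomb proteins keep it silent. CTCF, which binds DNA through zinc fingers, is known in the fly from several of these boundaries. H2A.V is the fly's H2A variant, which combines the roles of H2A.Z and H2A.X, and is known from the first nucleosomes of active genes. Unstaged embryos mix ages and body regions, so a listed peak is an average over cells in which these genes are on and cells in which they are off.

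The locus was chosen with its counts already known. The numbers of CTCF peaks and of H2A.V regions below are therefore descriptions, and none of them was tested. Gene names and gene order come from the RefSeq gene table of Release 6, a later build than dm3, and all 3 Hox symbols matched an entry. In order of rising position on 3R it lists Ubx, abd-A and Abd-B among 16 genes from Ubx to Abd-B. The other 13 include Glut3, a glucose transporter gene by name, the non-coding RNAs lncRNA:bxd, lncRNA:iab4 and lncRNA:iab8, and the microRNA genes mir-iab-4 and mir-iab-8, which lie on the same stretch of DNA between abd-A and Abd-B. The nearest protein-coding genes outside were modSP beside Ubx and VhaM9.7-d beside Abd-B. The low end of the window is called the Ubx end and the high end the Abd-B end. Which peaks lie at a promoter or at a known boundary was not analysed here, since no annotation of dm3 was used.

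CTCF peaks were listed from near the Ubx end of the window to near its Abd-B end, while H2A.V regions stopped short of both ends. The last H2A.V region before the Ubx end, from 12475881 to 12478126, was 2246 bp wide. The first one past the Abd-B end, from 12817118 to 12817765, was 648 bp wide. Between them lay 339 kb with no listed H2A.V region and with all 19 CTCF peaks. At the Ubx end the first CTCF peak lay 3.80 kb from the edge of the last H2A.V region before it. At the Abd-B end the last CTCF peak lay 13.2 kb from the next H2A.V region. The first CTCF peak lay 2.03 kb inside the lower limit and the next one below it 14.2 kb outside, while the last peak lay 11.2 kb inside the upper limit and the next one above it 13.1 kb outside. The nearest H2A.V midpoints lay 3.00 kb outside the lower limit and 2.44 kb outside the upper one.

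**Figure D1:**
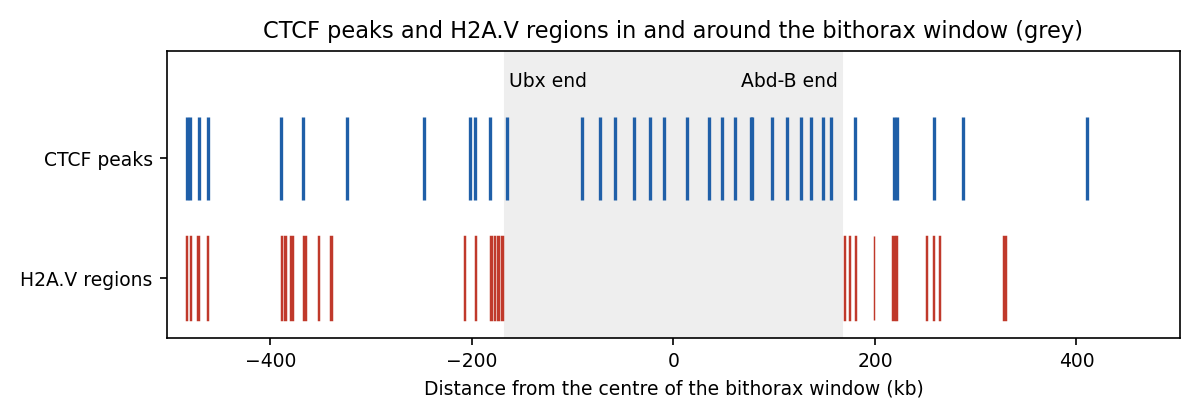
Position of CTCF peaks (blue lines) and H2A.V regions (red bars, drawn with a thin outline) on 3R, as the distance in kb from the centre of the bithorax window (grey, 335 kb), with a window of the same length on each side. The window holds 19 CTCF peaks and 0 H2A.V regions, and H2A.V regions stand close to both of its ends.

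The windows of the same length on each side of the locus held both kinds of feature. The bithorax window had 19 CTCF peaks and 0 H2A.V regions, against 11 and 16 in the window below it and 6 and 10 in the window above it. In the bithorax window 0 of 19 CTCF peaks shared a base with an H2A.V region, against 4 of 11 below and 3 of 6 above. Outside the bithorax window, 38.0% of the 2370 other CTCF peaks on the large arms 2L, 2R, 3L, 3R and X overlapped an H2A.V region. The distances that follow, like the absence of overlap, restate that the window was chosen with no H2A.V region in it. The bithorax peaks lay at a median of 92.7 kb from the nearest H2A.V edge (range 3.80 to 159 kb), against a median of 1.51 kb for those other peaks. Of the 19 peaks, 14 (73.7%) were over 50 kb from any H2A.V region, against 14.4% of the other peaks. At over 100 kb were 8 of 19 (42.1%), against 115 of 2370 (4.85%).

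Taken from the Ubx end to the Abd-B end, the CTCF peaks grew denser. With the window cut into 3 equal parts of 112 kb, the part at the Ubx end held 4 CTCF peaks, the middle part 6 and the part at the Abd-B end 9. The first peak, from 12481926 to 12482126, stood alone at the Ubx end, and the next one, from 12556552 to 12556752, followed only after 74.6 kb. This was the widest of the 18 spacings between neighbouring midpoints. Of the other spacings on the large arms, 21.6% were as wide or wider.

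From the second peak on, the CTCF peaks formed a chain of 18 over 247 kb with rather even steps. The next 3 peaks began at 12574367, 12589832 and 12608197, so that the steps from the second peak on were 17.8, 15.5 and 18.4 kb. The middle part of the window went on with peaks beginning at 12624514, 12637526, 12660469, 12682832 and 12695083, reached by steps of 16.3, 13.0, 22.9, 22.4 and 12.3 kb. The 22.9 and 22.4 kb steps, on either side of the peak at 12660469, were the widest of the chain. In the part at the Abd-B end, peaks began at 12708387 and 12724174, after steps of 13.3 and 15.8 kb. The peak at 12724174 was the first of a close pair, with its partner beginning at 12725150 only 0.976 kb further on. After the pair came peaks at 12744877, 12760529, 12774396, 12783569, 12795349 and 12803729, with steps of 19.7, 15.7, 13.9, 9.17, 11.8 and 8.38 kb. The last 3 steps were the shortest of the chain apart from the pair.

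The median spacing in the bithorax window was 15.6 kb (quartiles 12.4 and 18.2 kb), against 31.2 kb (quartiles 13.6 and 67.3 kb) for the 2366 other spacings on the large arms. A short median spacing follows from the count of CTCF peaks, with which the locus was chosen, and is not a further trait. Apart from the widest spacing and the close pair, 16 of 18 spacings (88.9%) fell between 8.38 and 22.9 kb, a range read off these spacings themselves. Of the other spacings on the large arms, 24.3% fell in that range and 60.4% were wider than it. Spacings under 1 kb made up 1 of 18 in the bithorax window, against 39 of 2366 (1.65%) elsewhere. The caller kept peaks at least 400 bp apart and required a 4-fold excess over the surrounding 10000 bp, per the file headers, so close neighbours could be lost. How far this shaped the even steps was not tested.

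**Figure D2:**
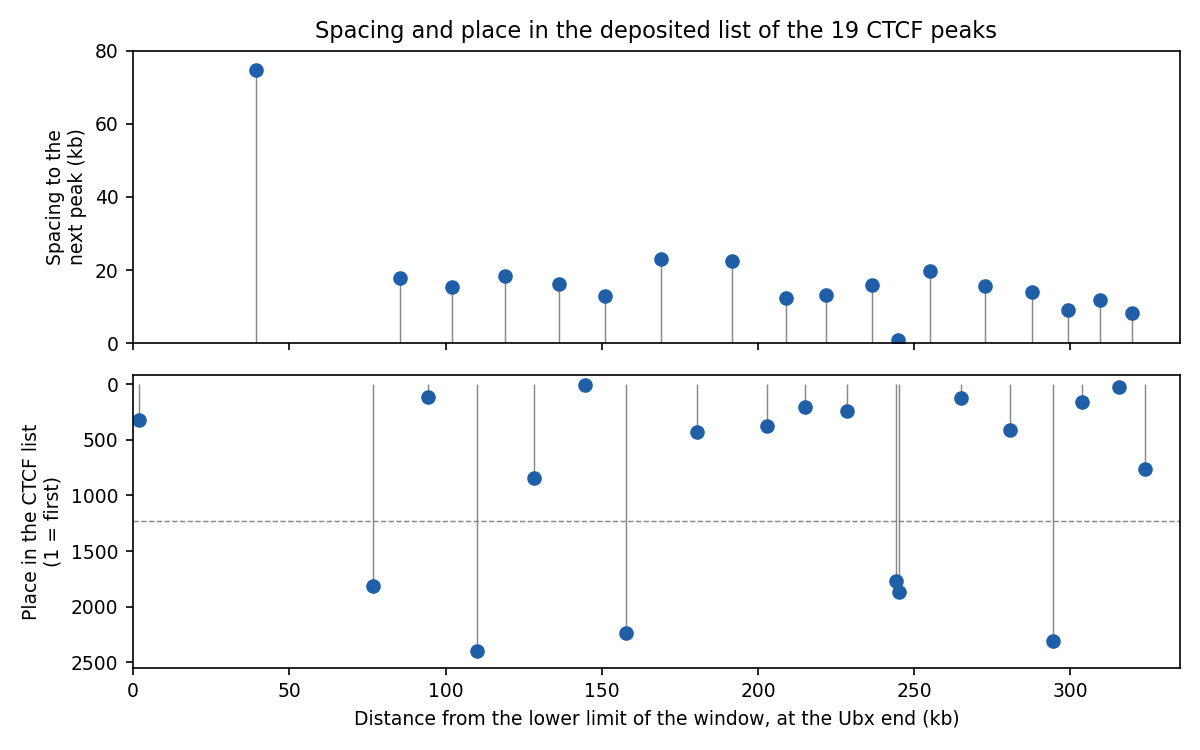
Spacing in kb between neighbouring CTCF midpoints (upper panel, each point at the middle of its spacing) and place of each of the 19 CTCF peaks in the deposited list of 2459 (lower panel, 1 at the top, dashed line at the middle of the list), by distance in kb from the lower limit of the window at the Ubx end. After a first spacing of 74.6 kb the steps stay at or under 22.9 kb, and 13 peaks stand above the dashed line.

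The 19 peaks together spanned 322 kb. This span restates the count of 19 peaks in a window of 335 kb, which was known when the locus was chosen. Among 2262 runs of 19 consecutive CTCF peaks elsewhere on the large arms, the median span was 864 kb and the shortest 323 kb. The evenness of the spacings was measured by their coefficient of variation (CV), the SD of the spacings over their mean, which is lower when steps are more alike. Over all 18 spacings of the bithorax window the CV was 0.844, against a median of 0.989 for the other runs, of which 19.6% were as even or more so. Without the first peak the CV was 0.368 over 17 steps, against a median of 0.981 and a minimum of 0.549 over 2268 other runs of 18 peaks. Leaving out the first peak was decided after its spacing had been seen, so the lower CV describes this chain only. Neighbouring runs share peaks and are not independent of each other.

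Windows of the same length, moved along the large arms in steps of 5 kb and not overlapping the locus, were used as a yardstick. The bithorax window, with 19 CTCF peaks and 0 H2A.V regions, compares with a median of 6 CTCF peaks (quartiles 5 and 9) and 8 H2A.V regions (quartiles 5 and 12) in 23301 such windows. As many CTCF peaks or more were found in 2 windows, or 0.00858%, which overlap each other on the X and hold 15 H2A.V regions each. On 3R no other window had more than 16 CTCF peaks. Windows with no H2A.V midpoint were more common, with 493 of them, or 2.12%. Their CTCF peaks ranged from 0 to 13, with a median of 3. Windows with both as many CTCF peaks and no H2A.V region numbered 0, or 0%. The windows overlap each other, so no interval is given for these shares.

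**Figure D3:**
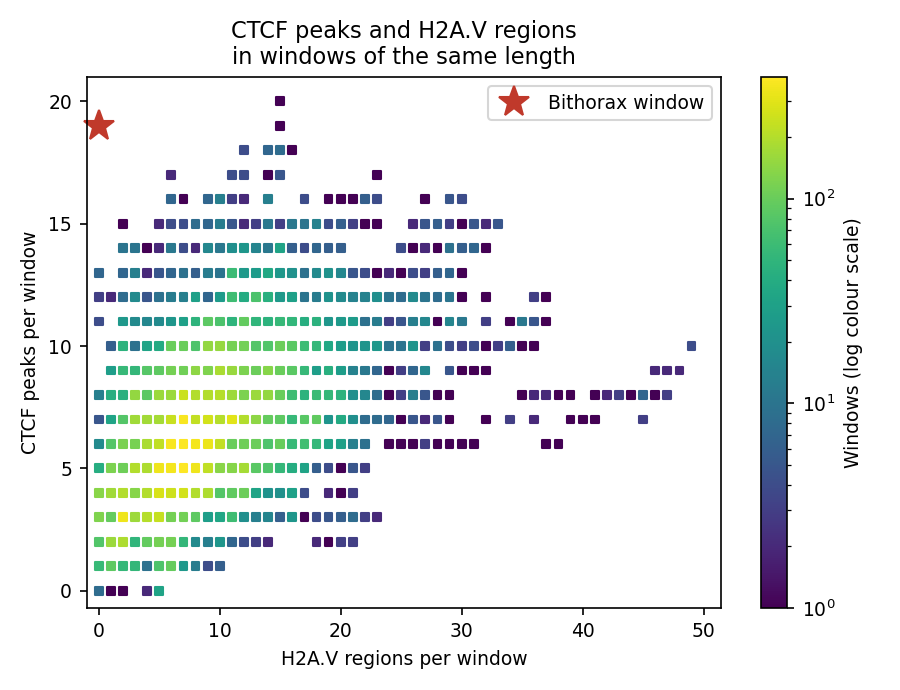
CTCF peaks (vertical axis) against H2A.V regions (horizontal axis) in 23301 windows of 335 kb on 5 large arms, coloured by the number of windows at each pair of counts on a log colour scale, with the bithorax window as a red star. Windows with 0 H2A.V regions reach 13 CTCF peaks, and the bithorax window has 19.

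Long stretches without H2A.V were not rare, and most held few CTCF peaks. On the large arms 3143 stretches separated neighbouring H2A.V regions, with a median length of 8.23 kb, and the bithorax stretch ranked 26 by length. The 25 longer ones held 1 to 14 CTCF peaks with a median of 5, against 19 in the bithorax stretch. Per 100 kb, the bithorax stretch had 5.60 CTCF peaks. In the 344 other stretches of at least 100 kb the median was 1.02 CTCF peaks per 100 kb (quartiles 0.605 and 1.79), and the highest was 5.13. Stretches with 10 or more CTCF peaks numbered 2. With only the first 1615 H2A.V regions in deposited order, stretches are longer by construction and 16 had 10 or more, up to 17 in 963 kb on 2L against 19 in 344 kb around the bithorax complex. The second of the 2 stretches, also on 3R, from 2486612 to 2891958, had 14 CTCF peaks in 405 kb, with a median spacing of 22.7 kb. No gene is named for it, since no annotation of dm3 was used.

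**Figure D4:**
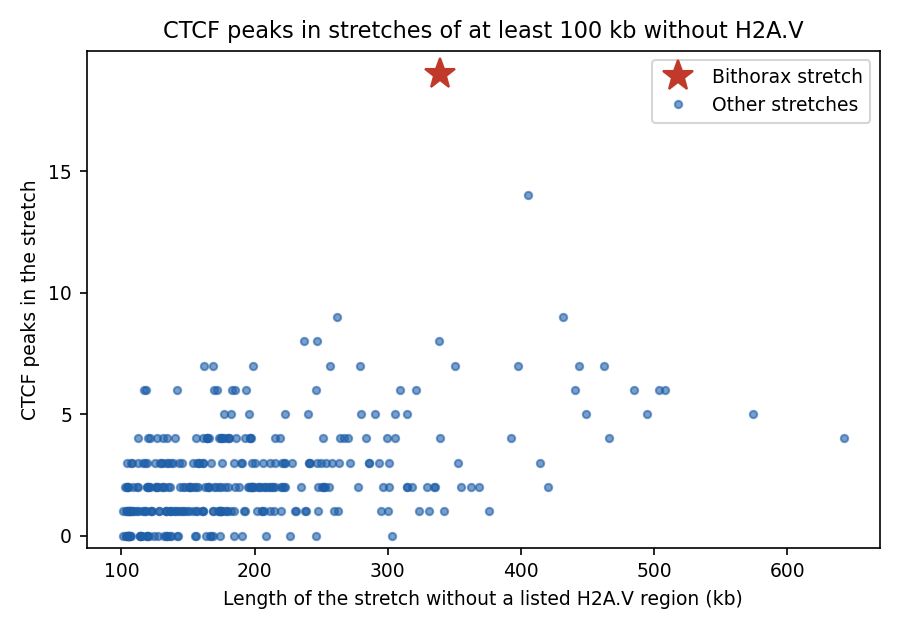
CTCF peaks (vertical axis) against length in kb (horizontal axis) of the 345 stretches of at least 100 kb with no listed H2A.V region on 5 large arms, 1 point per stretch. The bithorax stretch (red star) has 19 CTCF peaks in 339 kb, and the stretch with the next highest number has 14 in 405 kb.

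The lists give no tag count per peak. Beside its position, a peak has its place in the deposited order and a number in its ID, and the meaning of neither is recorded. The ID numbers of the 19 bithorax peaks, counted within 3R, ran from 1 to 818 and rose with their place, except that ID number 62 came before 56. Places are used below. The 19 bithorax peaks were spread over the whole list of 2459, with a median place of 407 against 1224.5 for the other peaks on the large arms. The first 1230 places, up to the middle of the list, held 13 of the 19 (68.4%), against 50.3% of the other peaks. Peaks off H2A.V came early elsewhere too, whether near it or far from it. Of the 1469 other peaks that did not overlap an H2A.V region, 60.2% were in the first 1230 places. Of the 342 among them over 50 kb from any H2A.V region, 64.3% were. The first 245 places held 7 of the 19 (36.8%), against 15.5% of those 342 peaks and 9.87% of all other peaks. The last 246 places held 3 of the 19 (15.8%), against 9.94% of those 342 peaks and 9.49% of all other peaks.

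Early and late places were mixed along the locus. The peak beginning at 12624514, in the middle part of the window, held place 3 of the whole list and was the first listed on 3R. The peak at 12795349, near the Abd-B end, held place 24, and those at 12574367, 12744877 and 12783569 held places 110, 121 and 159. The run of 4 peaks from 12660469 to 12708587 had places of 433, 375, 205 and 239 in order of position. Late peaks stood between these early ones. The peak at 12589832 held place 2398, that at 12774396 place 2310 and that at 12637526, the direct neighbour of the peak at place 3, place 2237. Both peaks of the close pair were late, at places 1771 and 1870, as was the second peak of the window, at 1817. The lone first peak held place 322, and the remaining 3 held places 843, 407 and 758.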

How the data were processed

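Bowtie 1.1.1 mapped the reads to dm3 and HOMER found the peaks, per the submitters' processing notes. Per the file headers, CTCF peaks were called in factor style on a peak size of 200 bp and at least 37 tags. H2A.V regions were called in histone style from 500 bp windows of at least 67 tags, stitched into regions. Both needed a 4-fold excess over the input. The deposited score column holds 1 in every line and was not used. The antibody label put the H2A.V library in its group, because H2A.C is the name in its title. Which name is right was not resolved, and every statement on H2A.V here rests on the antibody label. The H3 and input libraries were not analysed here.

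Midpoints, spacings, window counts and stretches were computed from the deposited positions with Python 3.11.15 and NumPy 2.4.6, and the code was tested on simulated data. Positions are printed counting from 1, and windows started at the first listed midpoint of an arm. Every bithorax peak is named, as the rule for naming asked, with the nearest features outside. The locus, its members and the measures were chosen with earlier results of these data known, so no test was run. Alternatives covered how windows were placed, their length, the arms and the H2A.V regions used, and how spacings were counted; motif matches and gene overlaps had been planned and were not analysed here. With 1 library of each kind, no spread between embryo collections can be given.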

Additional observations from a re-analysis of the deposited data

How the results depend on the processing

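The share of windows with as many CTCF peaks as the bithorax window was 0.00858%. It became 0% with windows laid end to end, on 3R alone, with the window 10% wider and without arm X, and it was 0.0514% with the window 10% narrower and 0.128% with windows started at each CTCF peak. The share with as few H2A.V regions was 2.12%, and was 1.80% with windows started at CTCF peaks, 0.800% on 3R alone, 1.68% without 2L, 2.51% without 3R and 3.05% with the narrower window. It was 39.9% with the wider window, which takes in 7 H2A.V regions, and 10.5% with only the first 1615 of the listed H2A.V regions. No window had both under any of the 5 alternatives run for it. With a changed window length, other windows were held against the counts of the resized bithorax window. These were 17 CTCF peaks and 0 H2A.V regions in the narrower one, and 21 and 7 in the wider one. The median spacing of 15.6 kb became 15.7 kb with the next peak outside on each side or with close peaks merged, 15.4 kb from edge to edge and 15.5 kb without the first peak, an alternative added after the data had been seen. The stretch without H2A.V, 339 kb, was 344 kb with those 1615 regions and 340 kb between midpoints. With those 1615 regions, an alternative added after the data had been seen, 16 stretches had 10 or more CTCF peaks in place of 2, and the most outside the bithorax stretch was 17. Among stretches of at least 50 kb, 0.647% had as many CTCF peaks per 100 kb as the bithorax stretch. No paired analysis was possible because there was 1 library per antibody. Sites under 37 tags for CTCF, or windows under 67 tags for H2A.V, are not in the lists, so a stretch without a listed region may still hold H2A.V below the threshold. Nor does either list hold every site that reached its threshold. Of 18141 putative CTCF peaks, 15117 were filtered out by the input and 565 by local signal, per the file headers. For H2A.V, 142 putative peaks were filtered out by the input. How far these filters shaped the CTCF counts and spacings, or the stretches without H2A.V, was not tested.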

Other observations

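Among windows of 335 kb with no H2A.V region, those with the most CTCF peaks after the bithorax window were, as the rule for naming asked, 5 that do not overlap each other. The first, on 3R from 2488129 to 2823128, held 13 CTCF peaks. Next came 8 CTCF peaks each on 3L from 14066125 to 14401124 and on the X from 2635361 to 2970360. The last were 7 on 3L from 11206125 to 11541124 and 6 on 2L from 13907365 to 14242364. Windows with 6 CTCF peaks and no H2A.V region numbered 17, overlapping ones included, and ties were broken by arm and start. Of all other windows, the richest in CTCF, on the X from 12980361 to 13315360, had 20 CTCF peaks, of which 7 overlapped one of its 15 H2A.V regions.

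In the 3R stretch without H2A.V from 2486612 to 2891958, 13 of 14 CTCF peaks stood in the first 1230 places of the CTCF list, against 13 of 19 in the bithorax window. In a stretch on the X from 2634707 to 3066486, 3 of 9 did so. A shorter stretch on the X, from 3566381 to 3828345, also had 9 CTCF peaks, and their places were not counted here.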
